A study of Bos taurus with 10 samples.

Results

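The genes described here are the well expressed members of the ZNF family of zinc finger genes in single bovine early blastocysts. Members were chosen by symbol and by the mean over all embryos. A gene was a member if its symbol was ZNF followed by a number and at most 1 letter, and if its normalized read count averaged at least 10 over all 10 embryos. Of 281 genes with such a symbol, 211 were members, out of 20112 genes in the table and 11334 genes of any name with such a mean, called expressed genes from here on. The rule used the mean over both groups and not the difference between them, so it did not fix the outcome of comparing *SOX2* KO with WT embryos. It did favor a direction for 6 members that reached this mean in WT only and for 2 in *SOX2* KO only, all named below. The members were also chosen with earlier results of these data known. Every embryo had been injected at the zygote stage with mRNA of BE3, a cytosine base editor. The 5 WT embryos received this mRNA alone, whereas the 5 *SOX2* KO (KO) embryos also received a mixture of sgRNAs that direct the editor to write premature stop codons into *SOX2*, the gene of an epiblast transcription factor. Neither group was left without injection. All embryos were early blastocysts, day 7.0 in the labels and slightly later in the study's text. Each library was made from 1 whole embryo with an oligo(dT) primer, which targets polyadenylated RNA. In the embryo names used below, WT 1 to 5 and KO 1 to 5 follow the columns of the table. The labels number the *SOX2* KO embryos 1, 2, 3, 5 and 6, so the name KO 4, for example, is a column and not a labelled replicate.

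ZNF proteins bind nucleic acid through C2H2 zinc fingers, small folds in which cysteines and histidines hold a zinc ion. Many of them also carry a KRAB domain. The KRAB domain recruits TRIM28 (also called KAP1), which in turn brings in the histone methyltransferase SETDB1, HP1 proteins and deacetylases, so that the bound DNA becomes heterochromatin. KRAB zinc finger genes multiplied by tandem duplication and often lie side by side, and they are known in early embryos for silencing transposable elements and for keeping imprints. Other ZNF proteins have no KRAB domain and work in transcription, splicing, ribosome assembly or cell division.

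The libraries held 2223670 to 5134855 reads on genes in WT and 2578284 to 4337342 in KO embryos, of which 9240 to 23334 and 9250 to 16036 fell on the ZNF members. The 18S rRNA gene *RN18S1* took 26.4% to 37.0% of reads in WT and 32.5% to 45.0% in KO embryos, and 15919 to 18092 genes had a read in WT, against 17987 to 19813 in KO embryos. *SOX2* itself had normalized read counts of 56.5 to 93.4 in WT and 26.4 to 82.1 in KO embryos (log2 fold change -0.55, SE 0.27, limma adjusted p = 0.167). A base edit leaves the transcript in place, so this level does not test the edit. The summed count of 11 epiblast markers was 3174 to 3801 in WT and 1618 to 2157 in KO embryos, and 8 of the 11 fell at an adjusted p of at most 0.05. Of 9 measured primitive endoderm markers, 5 were lower and 4 higher, with a median log2 fold change of -0.09. *PDGFRA* and *HNF4A* fell at that threshold, and none rose. The sum was 1702 to 2120 against 1510 to 1866, and its largest part was *GATA6* (means 958 and 871, not passing). The 12 trophectoderm markers summed to 25549 to 37624 in WT and 34985 to 47963 in KO embryos, with *KRT18* higher and *TFAP2C* lower at this threshold. Most of this sum came from *KRT8* (means 17496 and 22437) and *KRT18* (9100 and 15124). Of the 12, 11 were higher and 1 lower, with a median log2 fold change of 0.55. For comparison, 53.1% of all expressed genes and 37.1% of all tested genes were lower. The 10 cumulus cell markers summed to 40.0 to 91.5 and 60.5 to 105, and none passed. No marker was at 0 in every embryo, and the part these marker levels have in the ZNF results was not tested. Since each library is a whole embryo, fewer cells of a type and less RNA per cell cannot be told apart. The p-values measure the spread between these embryos.

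The mean normalized read count of the 211 ZNF members ran from 10.4 for *ZNF775* to 810 for *ZNF207*, with a median of 35.0 and quartiles of 21.1 and 58.7. Only 27 members averaged 100 or more. These counts were not divided by transcript length, so they rank the evidence behind each gene and not its number of transcripts. All 211 members had at least 1 read in each embryo except KO 4, where *ZNF484* and *ZNF527* had none and 209 were detected. The members just inside the limit of 10 were *ZNF775* (10.4), *ZNF696* (11.0) and *ZNF668* (11.2), and the genes just outside it were *ZNF774* (9.74), *ZNF554* (9.70) and *ZNF827* (9.58). In 8 members the mean of 1 group alone was at least 10. It was that of WT for *ZNF10*, *ZNF484*, *ZNF527*, *ZNF608*, *ZNF668* and *ZNF775*, and that of *SOX2* KO for *ZNF165* and *ZNF282*. The rule thus favored lower values in KO embryos for the former and higher values for the latter.

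As a group, the ZNF members leaned to lower counts in KO embryos, with few single genes past the test. The log2 fold change (*SOX2* KO minus WT, on log2(normalized read count + 1)) was negative in 136 members and positive in 75. The share below 0 was 64.5%, beside 53.1% of all expressed genes and 37.1% of all 20056 tested genes. The median was -0.14 (quartiles -0.45 and 0.12) for the members and -0.04 for expressed genes. No member had moved beyond a log2 fold change of -1.57 or 1.12, and 154 (73.0%) lay within 0.5 of 0, beside 68.7% of expressed genes. The count of lower members depended on the scaling. It was 158 when all embryos were set to equal totals and 112 when the scaling came from the median log ratio of the genes that averaged 100 or more.

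**Figure D1:**
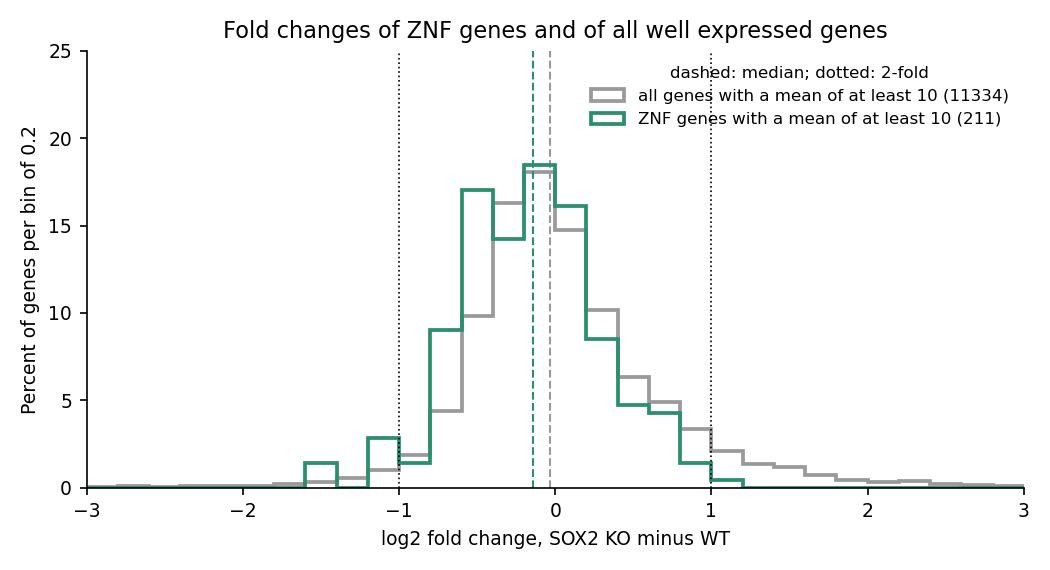
Histogram of log2 fold changes (*SOX2* KO minus WT, x axis) as the percent of genes in each bin of 0.2 (y axis), for the 211 ZNF members (green) and all 11334 expressed genes (grey). Dashed lines mark the medians, -0.14 and -0.04, and dotted lines mark a 2-fold difference. The grey line runs on to the right of the upper dotted line where the green line has 1 gene, and genes beyond the ends of the axis are not drawn.

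A gene was called when its limma p, adjusted by Benjamini-Hochberg, did not exceed 0.05 and its fold change was 2 or more, or 0.5 or less. Of the members, 5 (2.37%) were called lower in KO embryos, beside 1.90% of all expressed genes. None was called higher, beside 4.97% of those genes. There were 5 members with an unadjusted p under 0.05 in that direction, and DESeq2 and edgeR called none higher either. On adjusted p alone, 14 members fell (6.64%, background 5.51%) and 1 rose (0.474%, background 7.52%). These counts depended on the setting. With the median log ratio 5 fell and 3 rose, with quantile normalization 9 fell and 1 rose, and with equal totals 17 fell and 0 rose. Over the fits that left out 1 embryo, the number that fell ran from 2 (without KO 5) to 21 (without KO 4), where 0 and 2 rose. Groups that did not overlap at all were found for 12 members lower in *SOX2* KO (5.69%, background 4.72%) and for 2 higher (0.948%, background 4.54%), *ZNF436* and *ZNF282*. *ZNF282* reached the mean of 10 only through the KO group, in which it is high, so its direction was favored by the rule. The share of members that fell was near the background, while few members were found on the higher side. With the *RN18S1* share of each embryo as a covariate, no member was called, none passed on adjusted p alone in either direction, and 20 had an unadjusted p under 0.05. This covariate also cut the calls among all expressed genes, from 778 to 203. The share ran higher in KO than in WT embryos, so covariate and group overlap, and the loss of calls is not particular to the members.

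The KO embryos differed among themselves. In KO 1 to 5, 22.7%, 30.8%, 30.3%, 32.7% and 32.7% of members lay below the lowest WT embryo, beside 25.2%, 22.2%, 24.7%, 22.2% and 27.6% of expressed genes. Above the highest WT embryo lay 19.4%, 14.7%, 8.53%, 17.5% and 12.8% of members, beside 21.4%, 21.6%, 21.7%, 22.1% and 23.5%. KO 1 was thus near the other genes on both sides, with fewer members below the WT range than expressed genes had, whereas the other 4 embryos had more members below it. The mean log2 value over all members was 5.29, 5.31, 5.35, 5.23 and 5.28 in WT 1 to 5, and 5.30, 5.08, 5.14, 5.07 and 5.10 in KO 1 to 5, so that KO 1 lay within the WT range and the other KO embryos below it. Over all expressed genes, the WT embryos had 6.12 to 6.22 and the KO embryos 6.17 to 6.28.

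*ZNF382*, which encodes a KRAB zinc finger repressor, showed the clearest difference. Its normalized read counts were 93.1, 104, 73.6, 99.5 and 76.1 in WT 1 to 5 and 26.7, 39.6, 24.4, 50.1 and 23.1 in KO 1 to 5. Every *SOX2* KO embryo lay below every WT embryo. The group means were 89.2 ± 13.7 and 32.8 ± 11.7 (SD, n = 5 each), and the log2 fold change was -1.47 (SE 0.25, limma adjusted p = 0.000927). The call held in all 10 fits that left out 1 embryo, with adjusted p up to 0.00433. It did not hold with the *RN18S1* share of each embryo as a covariate (log2 fold change -1.12, adjusted p = 0.0606).

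*ZNF268* and *ZNF529*, a pair of further KRAB zinc finger genes, also fell without overlap. *ZNF268* had counts of 64.9, 78.6, 39.8, 48.2 and 46.6 in WT and 31.2, 33.0, 17.4, 28.8 and 20.8 in KO embryos. The means were 55.6 ± 15.8 and 26.2 ± 6.78 (SD, n = 5 each), with a log2 fold change of -1.05 (SE 0.27, limma adjusted p = 0.0172). Without WT 1, WT 2, KO 3 or KO 5 the gene was no longer called. Over the fits that left out 1 embryo its log2 fold change ran from -1.16 to -0.92 and its adjusted p up to 0.0531.

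*ZNF529* had counts of 26.7, 40.0, 40.8, 24.9 and 35.4 in WT and 14.5, 9.24, 12.8, 23.8 and 20.8 in KO embryos. KO 4, the highest of the *SOX2* KO embryos, was only just below WT 4, the lowest of the WT embryos. The log2 fold change was -1.05 (SE 0.33, limma adjusted p = 0.0382) between means of 33.6 ± 7.42 and 16.2 ± 5.95 (SD, n = 5 each). The call held without WT 4 or without KO 4, and in none of the other 8 fits that left out 1 embryo (adjusted p up to 0.0870).

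The other 2 called members had overlapping groups. *ZNF570*, another KRAB zinc finger gene, had 39.7, 63.8, 36.8, 57.5 and 49.6 in WT and 52.3, 17.2, 27.9, 18.9 and 15 in KO embryos. KO 1 lay among the WT embryos and the other 4 below them. Its log2 fold change was -1.01 (SE 0.32, limma adjusted p = 0.0412), and leaving out KO 1 gave the lowest value, -1.29. The call held without WT 3 or without KO 1, and in none of the other 8 such fits. DESeq2 gave an adjusted p of 0.0556 and did not call it, and edgeR missed the fold threshold (log2 fold change -0.99, adjusted p = 0.0419).

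*ZNF572* was the most uneven of the 5. Counts were 32.8, 37.1, 31.8, 24.9 and 28.9 in WT, and 2.23, 7.92, 30.2, 21.4 and 6.92 in KO embryos. KO 1, KO 2 and KO 5 were far below the WT embryos, KO 4 was just below them and KO 3 lay among them. The log2 fold change was -1.54 (SE 0.48, limma adjusted p = 0.0387), but the adjusted p was 0.0720 with DESeq2 and 0.0712 with edgeR. The call held without KO 3 or without KO 4, and in none of the other 8 fits that left out 1 embryo.

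**Figure D2:**
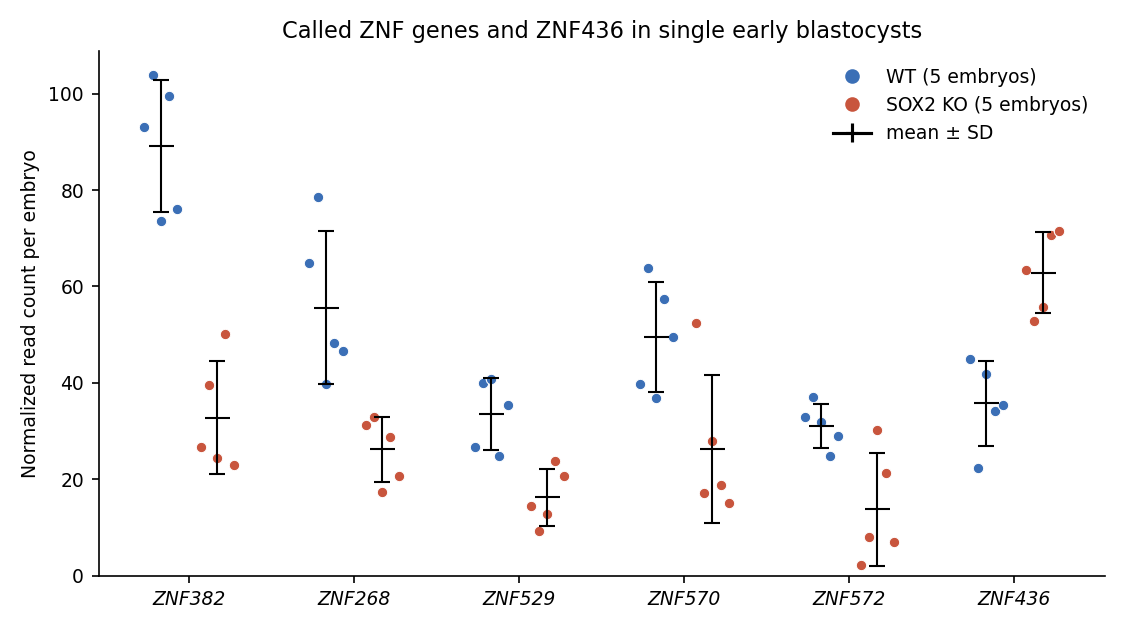
Normalized read count per embryo (y axis, linear from 0) of the 5 called ZNF genes and *ZNF436* (x axis), for 5 WT embryos (blue) and 5 *SOX2* KO embryos (red), with mean and SD in black. The groups are apart for *ZNF382*, *ZNF268*, *ZNF529* and *ZNF436*, 1 red point of *ZNF570* and 1 of *ZNF572* lie among the blue points, and *ZNF436* is the only one of the 6 with the red points on top.

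A further 9 members fell on adjusted p alone, by less than 2-fold. The KRAB zinc finger genes among them included *ZNF445*, a protein that keeps imprints after fertilization. *ZNF445* had counts of 41.2, 50.4, 43.8, 49.0 and 43.7 in WT and 23.4, 22.4, 27.9, 24.6 and 31.1 in KO embryos, with a wide gap between the groups (log2 fold change -0.80, SE 0.24, limma adjusted p = 0.0347). *ZNF814* had 104 to 165 in WT and 61.1 to 99.4 in KO embryos, and its fall (-0.76, adjusted p = 0.0164) was lost only without KO 5 among the fits that left out 1 embryo. *ZNF792* (-0.75, adjusted p = 0.0365) ranged from 83.0 to 93.8 in WT, against 27.9 to 69.0 in KO embryos. Those groups were also apart.

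*ZNF614* and *ZNF146*, by contrast, had overlapping groups. *ZNF614* fell by 0.74 on the log2 scale (limma adjusted p = 0.0354), and KO 4 at 205 stood above the other *SOX2* KO embryos (99.0 to 109) and inside the WT range of 130 to 265. *ZNF146*, a protein made almost only of zinc fingers, fell by 0.73 (adjusted p = 0.0405), from 59.7 to 111 in WT to 33.4 to 60.1 in KO embryos. *ZNF292*, a large transcription factor gene, had 106 to 259 in WT and 87.6 to 144 in KO embryos (-0.68, adjusted p = 0.0483).

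The other 3 were among the members with the most reads, and their groups did not overlap. *ZNF207* (BuGZ), which acts in spindle assembly and the alignment of chromosomes, had 899, 968, 888, 858 and 1074 in WT and 645, 772, 626, 771 and 600 in KO embryos (log2 fold change -0.46, SE 0.14, limma adjusted p = 0.0382). *ZNF281*, whose mouse counterpart takes part in the exit from naive pluripotency, had 337, 374, 348, 343 and 347 in WT and 239, 239, 256, 314 and 227 in KO embryos. Its log2 fold change was -0.46 (SE 0.14, adjusted p = 0.0387), with KO 4 nearest to WT. *ZNF326*, a subunit of a complex that couples elongation with splicing, had 225 to 294 in WT and 158 to 204 in KO embryos (-0.56, SE 0.15, adjusted p = 0.0210). *ZNF281*, *ZNF326* and *ZNF207* were the members with the smallest spread within groups, SDs of 0.14, 0.15 and 0.15 on the log2 scale. The falls of *ZNF207* and *ZNF281* held in 3 and 2 of the 10 fits that each dropped 1 embryo, that of *ZNF326* in 6.

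*ZNF436*, a KRAB zinc finger gene, was the only member that rose on adjusted p. Its counts were 45.0, 22.2, 41.8, 34.2 and 35.4 in WT and 63.5, 52.8, 55.8, 70.6 and 71.5 in KO embryos, with no overlap. The means were 35.7 ± 8.76 and 62.8 ± 8.45 (SD, n = 5 each), and the log2 fold change was 0.83 (SE 0.24, limma adjusted p = 0.0282). It was lost without WT 2, WT 4, KO 1 or KO 5, with equal totals and with the *RN18S1* covariate. *ZNF664*, named after its values were seen, had the largest positive value, 1.12 (SE 0.38, adjusted p = 0.0553). Its counts of 9.92, 11.9, 19.9, 33.4 and 37.2 in WT and 42.3, 51.5, 59.3, 19.7 and 65.7 in KO embryos left KO 4 among the WT embryos and the other 4 above them. Without KO 4 it passed both thresholds (highest log2 fold change 1.41), as it did without WT 4 or WT 5. *ZNF282* also had groups that did not overlap, at 5.31 to 11.9 in WT and 11.9 to 23.3 in KO embryos, which left almost no gap, and it did not pass (0.88, adjusted p = 0.127).

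Several members with many reads differed little between the groups. *ZNF106*, an RNA-binding zinc finger protein, averaged 760 ± 82.3 in WT and 771 ± 209 in KO embryos (SD, n = 5 each), a log2 fold change of -0.02 (SE 0.18, limma adjusted p = 0.961). *ZNF638*, which acts in splicing and in silencing of foreign DNA, averaged 345 ± 38.4 and 356 ± 39.6 (0.05, adjusted p = 0.851). *ZNF593*, a ribosome assembly factor, averaged 285 ± 33.2 and 283 ± 38.0 (-0.01, adjusted p = 0.963). *ZNF706* (-0.04) and *ZNF215* (-0.06) did not pass either, and both had wide groups. *ZNF215* ranged from 236 to 802 among WT embryos alone.

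The members were also read by level. Of the 50 members with a mean of 10 to 20, none was called, the median SE was 0.42 and the median log2 fold change 0.03, beside 0.30 over all genes of that range. The 97 members from 20 to 50 had a median of -0.19 (all genes 0.05) and 4 calls, and the 37 from 50 to 100 had a median of -0.12 (all genes -0.07) and 1 call. Of the 27 members with a mean of at least 100, 22 were lower, with a median of -0.26 (all genes -0.11) and a median SE of 0.18. None of these was called, and 6 fell on adjusted p alone. Over expressed genes of all levels, 1.90% were called lower and 5.51% fell on adjusted p alone. Those shares were not split by level, and the SE was smaller at higher levels, so the counts per level cannot be set against them directly. At every level the median of the members was below that of all genes.

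Lists by known role held 50 members, of which 32 were lower, 0 were called and 5 fell on adjusted p (10 at an unadjusted p under 0.05 lower and 1 higher). The share below 0 was 64.0%, about that of all members (64.5%) and above that of expressed genes (53.1%). For the 5 that fell the background was 5.51%, and for calls it was 1.90% lower and 4.97% higher. Their median was -0.19. The 10 members known from pluripotency and stem cells had the median -0.45, and 8 of them were lower. With the *RN18S1* covariate that median was -0.22. Over all 12 tested genes of the list it was -0.41, with *ZNF521* (0.81) and *ZNF423* (0.67), both under a mean of 10, higher without passing. *ZNF281* and *ZNF207* fell. *ZNF217*, which recruits CtBP corepressors, had 160 to 224 in WT and 113 to 177 in KO embryos (-0.50, limma adjusted p = 0.0592). *ZNF296*, a partner of KLF4 and NuRD, had 63.8 to 114 and 43.0 to 89.8 (-0.61, adjusted p = 0.0799). *ZNF131* (-0.43), *ZNF143* (-0.40), *ZNF770* (-0.28) and *ZNF462* (-0.53) were lower without passing, and *ZNF322* (0.03) and *ZNF398* (0.21) were not lower.

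Of 14 members from chromatin complexes, *ZNF445* alone fell, and the median was -0.15. It was -0.09 without WT 3, -0.05 without KO 2, -0.05 with the median log ratio and -0.27 with equal totals. Over all 19 tested genes of this list, including those with a mean under 10, it was -0.03. *ZNF532*, *ZNF592* and *ZNF687*, which bind one another in a chromatin complex with ZMYND8, had log2 fold changes of 0.01, 0.34 and 0.44 and did not pass. The median of 12 members with roles in RNA and ribosomes was -0.01, and its sign was not stable. It was 0.09 with scaling by the median log ratio, 0.02 with the *RN18S1* covariate, 0.04 without KO 5 and 0.01 without WT 5. *ZNF326* was the only one to fall, and *ZNF830* was lower without passing (-0.59, limma adjusted p = 0.0987). *ZNF598* (0.05) and *ZNF622* (0.01), which act in ribosome quality control and ribosome assembly, were near 0. The 10 members that bind promoters widely had the median -0.25 and none passed. That median was -0.13 without KO 5, -0.15 with the median log ratio and -0.02 with the *RN18S1* covariate. Of 6 members with epithelial and developmental roles, with a median of -0.58 (-0.37 with the *RN18S1* covariate), *ZNF292* fell. Over all 13 tested genes of this list, including those with a mean under 10, the median was 0.48, with 4 lower and 9 higher. The median of all tested genes under 10 was 0.93. *ZNF608* (-1.05) and *ZNF704* (-0.64) did not pass, and *ZNF711* (0.31) and *ZNF395* (0.48) were higher without passing. Of these, *ZNF608* was a member only through its WT mean, so the rule favored its fall.

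Since KRAB zinc finger genes lie in runs, the members were also read in the gene order of the RefSeq annotation of ARS-UCD2.0, in which 207 of the 211 were found. A run was formed of ZNF genes at most 3 places apart among protein-coding genes. The 110 members beside another ZNF gene had the median -0.17, with 76 lower and 3 called. The 97 without such a neighbour had the median -0.07, with 58 lower and 1 called. The shares below 0 were 69.1% and 59.8%, beside 53.1% of expressed genes, of which 1.90% were called lower. *ZNF529*, which was called, was 1 of the 4 members not found.

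The largest run, from *ZNF146* to *ZNF420*, held 15 members of 18 annotated ZNF genes. Its median log2 fold change was -0.68, 12 of the 15 were lower, and 3 fell on adjusted p (*ZNF382*, *ZNF570* and *ZNF146*, the first 2 called). Of all expressed genes, 53.1% were below 0, 5.51% fell on adjusted p and 1.90% were called lower. The mean log2 value over the 15 was 5.11, 5.33, 4.76, 5.10 and 4.88 in WT 1 to 5 and 4.82, 4.25, 4.49, 4.34 and 4.44 in KO 1 to 5. KO 1 was inside the WT range and the other 4 below it. The lower members that did not pass included *ZNF829* (-0.66, limma adjusted p = 0.0698, no overlap), *ZNF585A* (-0.83), *ZNF566* (-0.79), *ZNF260* (-0.70), *ZNF793* (-0.68), *ZNF568* (-0.51) and *ZNF567* (-0.50). *ZNF565* (-0.01), *ZNF420* (0.03), *ZNF461* (0.10) and *ZNF383* (0.31) were not clearly lower, so the run did not move as 1 block. *ZNF527* (-1.05, adjusted p = 0.234) rested in part on KO 4, where it had no read. It was a member only through its WT mean, so the rule favored its fall. Neighbouring genes without a ZNF symbol, within or up to 5 places beside the run, were lower in 5 of 6 cases and none passed. They included *ZFP30* (-0.35), itself a zinc finger gene.

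**Figure D3:**
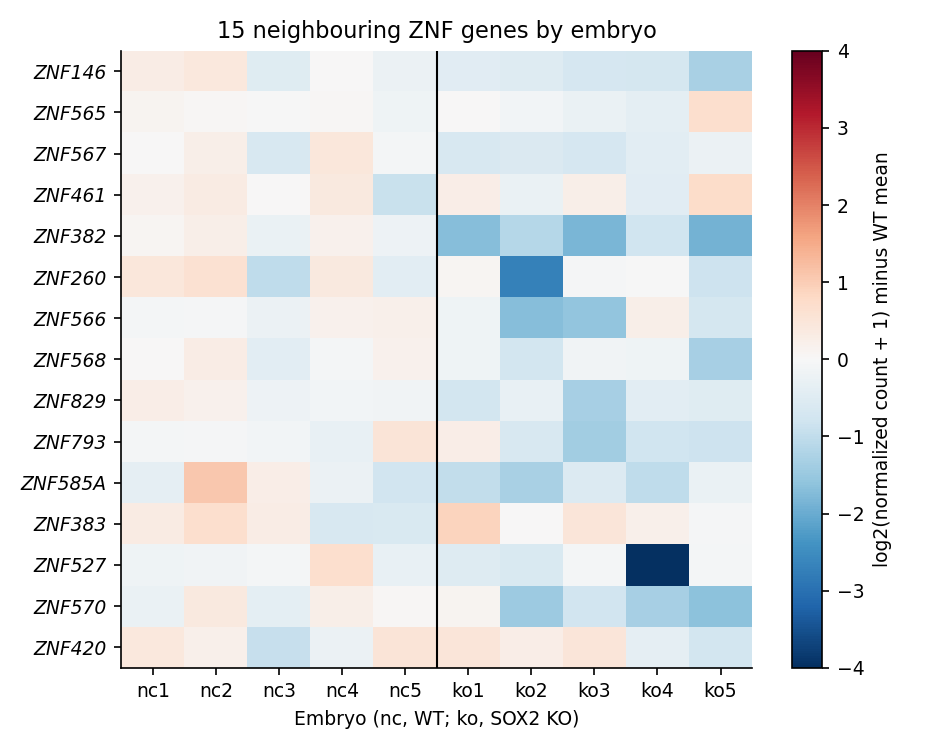
Heat map of the 15 members from *ZNF146* to *ZNF420* (rows, in gene order) by embryo (columns, WT left of the line and *SOX2* KO right of it). Color gives log2(normalized count + 1) minus the WT mean of the gene, blue for lower and red for higher. *ZNF382* is blue in all 5 *SOX2* KO embryos, *ZNF570* in 4, *ZNF527* is darkest in KO 4, where it had no read, and *ZNF383* and *ZNF461* show no such pattern.

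The run from *ZNF398* to *ZNF862* went the other way. All 7 of its members had positive values, with the median 0.54, although none passed. The mean log2 value over the 7 was 4.29, 3.82, 4.57, 4.04 and 3.89 in WT 1 to 5 and 4.60, 4.37, 4.59, 4.76 and 4.43 in KO 1 to 5, and WT 3 lay among the *SOX2* KO embryos. *ZNF282* (0.88), *ZNF212* (0.69), *ZNF862* (0.61) and *ZNF783* (0.54) had the largest values, of which *ZNF282* was a member only through its KO mean, and *ZNF746* (0.00) and *ZNF777* (0.04) lay near 0. Of 8 other genes within or beside the run 7 were higher, and *SSPO* (3.53) and *LOC100336368* (0.97) passed on adjusted p. With equal totals 2 of the 7 members were below 0, and with quantile normalization 3 were, so the direction of single members depended on the scaling. With neighbours at most 1 place apart the run held 6 members, and at most 6 places apart it held 8, both with the median 0.37. The eighth was *ZNF775*, at -0.78, a member only through its WT mean. The median of the run stayed between 0.35 and 0.67 in all other settings run, and that of the *ZNF146* run between -0.80 and -0.45.

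Among the 5 other runs with at least 4 members, the medians went from -0.61 (*ZNF605* to *ZNF268*) to -0.06 (*ZNF283* to *ZNF180*). In the first, *ZNF268* was called, *ZNF10* was lower without passing (-1.15, limma adjusted p = 0.148), and *ZNF140* (-0.16) and *ZNF605* (0.17) were near 0. Since *ZNF10* was a member only through its WT mean, the rule favored its fall. Without KO 4, where *ZNF10* had 1 read, the median of that run was -0.27. The 8 members from *ZNF283* to *ZNF180* showed little difference, with values from -0.35 to 0.37 and none past the test. The sign of its median was not stable, and reached 0.05 without KO 5. Neighbouring ZNF genes can be near copies of one another, and how reads that fit several genes were counted is not given in the sources used here. Reads could therefore be shared between members of a run.

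**Figure D4:**
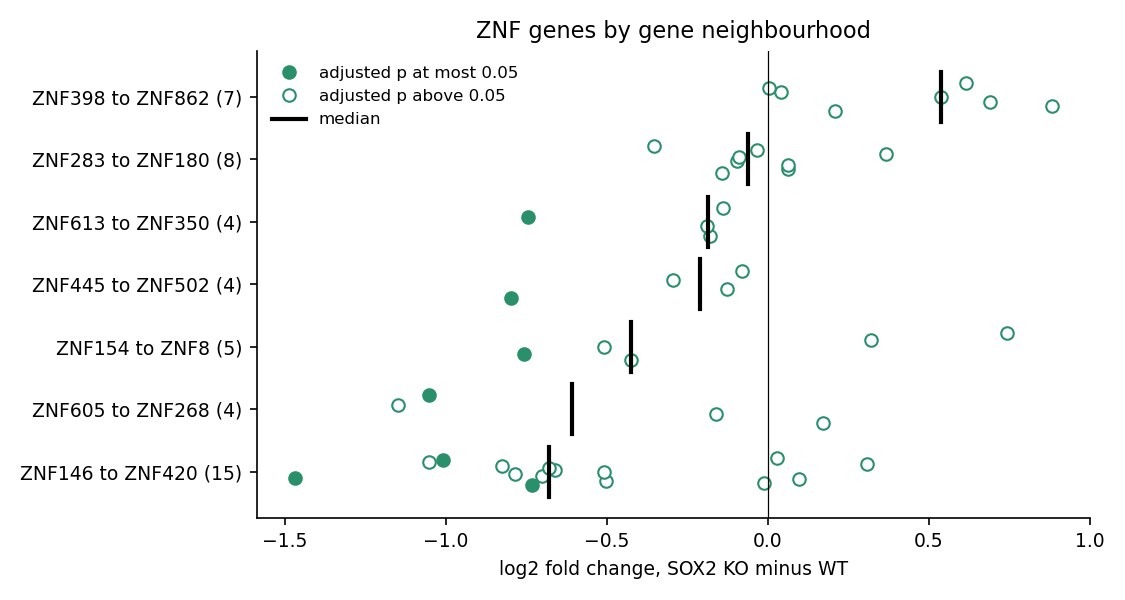
Log2 fold change (*SOX2* KO minus WT, x axis) of each member in the 7 runs of neighbouring ZNF genes with at least 4 members (y axis, number of members in parentheses). Filled circles have an adjusted p of at most 0.05, open circles do not, and black bars are medians. The 15 members from *ZNF146* to *ZNF420* lie mostly left of 0 with the median -0.68, and the 7 from *ZNF398* to *ZNF862* lie at or right of 0 with the median 0.54, although 2 of the 7 with equal totals and 3 with quantile normalization turned negative.

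The partners through which KRAB zinc finger proteins silence DNA were mostly lower as well. Of 25 measured genes in a list of KRAB corepressors and heterochromatin proteins, 22 had a negative log2 fold change, with the median -0.25, and 4 fell on adjusted p (16.0%, background 5.51%). The share below 0 was 88.0%, beside 53.1% of expressed genes. The 2 sets are not at equal level, since the median of the means was 173 for the list and 73.6 for expressed genes. All genes with a mean of at least 100 had a median log2 fold change of -0.11. The other scalings and both count tests gave 21 or 22 lower genes, while the median was -0.15 with the median log ratio, -0.37 with equal totals and -0.38 with edgeR. *TRIM28*, the protein that KRAB domains bind, had 807, 961, 1079, 1025 and 927 in WT and 607, 651, 651, 855 and 715 in KO embryos. Only KO 4 lay inside the WT range. The log2 fold change was -0.47 (SE 0.15, limma adjusted p = 0.0407), and it passed in 2 of the 10 fits that each dropped 1 embryo, those without WT 1 and without KO 4.

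*HDAC2*, a deacetylase of the NuRD complex, fell most, from 172, 228, 163, 297 and 222 in WT to 108, 123, 97.7, 148 and 81.9 in KO embryos (log2 fold change -0.94, SE 0.20, limma adjusted p = 0.00523). The groups did not overlap, and the fall passed in all 10 fits that left out 1 embryo. *TRIM33*, a relative of *TRIM28*, had 264 to 347 in WT and 173 to 223 in KO embryos (-0.63, adjusted p = 0.0115). *SMARCAD1*, a chromatin remodeler that binds *TRIM28*, had 163 to 240 and 96.9 to 153 (-0.64, adjusted p = 0.0208). *SETDB1* (-0.22), *HDAC1* (-0.48), *CBX1*, *CBX3* and *CBX5* of the HP1 family (-0.65, -0.33 and -0.17), and the HUSH genes *FAM208A*, *MPHOSPH8* and *PPHLN1* (-0.46, -0.33 and -0.49) did not pass.

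*CHD3*, a NuRD remodeler, was the only gene of this list that was called, and it rose. Its counts were 32.8, 19.3, 48.7, 35.0 and 27.7 in WT and 94.6, 67.3, 80.2, 40.3 and 68.0 in KO embryos, with KO 4 inside the WT range (log2 fold change 1.08, SE 0.28, limma adjusted p = 0.0160). Without WT 2 or without KO 1 it no longer passed. *CHD4* (-0.20), the other NuRD remodeler on the list, did not pass, nor did *UHRF1* (0.70), *DNMT1* (0.16) and the imprint keeper *ZFP57* (-0.14).

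**Figure D5:**
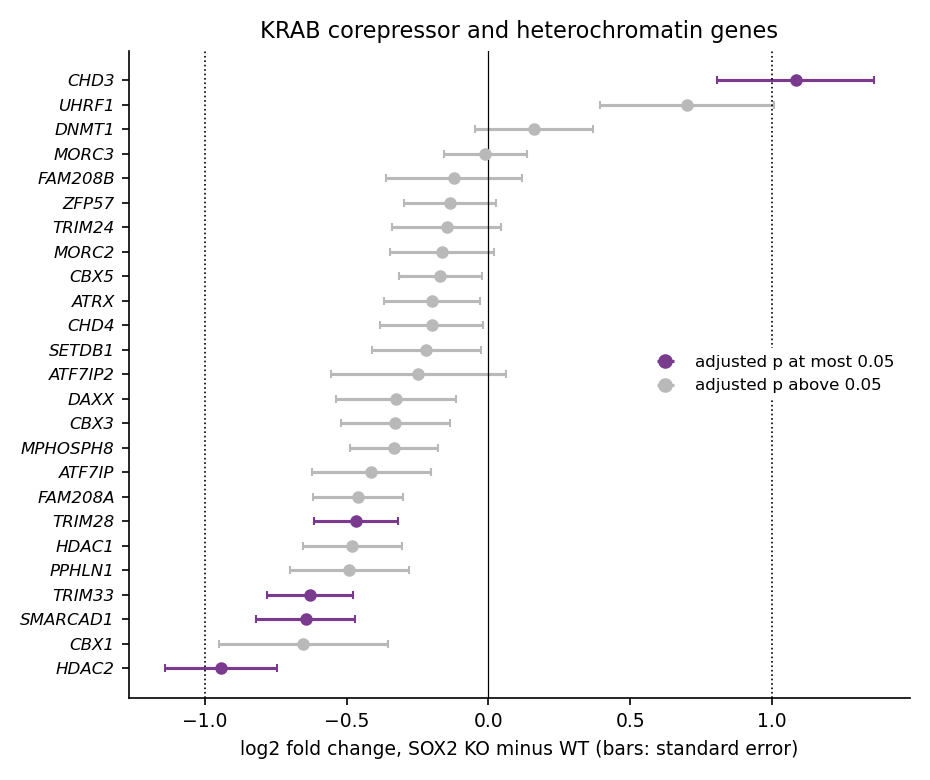
Log2 fold change (*SOX2* KO minus WT, x axis) with its standard error for the 25 measured KRAB corepressor and heterochromatin genes (y axis, sorted). Purple points have an adjusted p of at most 0.05, grey points do not, and dotted lines mark a 2-fold difference. *CHD3* is the only purple point to the right, *HDAC2* is at the lower end, and 22 points lie left of 0.

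Spread between embryos of the same group differed widely among the members. The median SD within groups was 0.43 on the log2 scale for the members and 0.37 for all expressed genes, which also had more reads (median of the means 73.6 against 35.0), so that these SDs are not at equal level. *ZNF484*, *ZNF462* and *ZNF527* varied most, with SDs of 1.42, 1.24 and 1.2. *ZNF484* had the lowest log2 fold change of all members, -1.57 (SE 0.67, limma adjusted p = 0.113), from counts of 29.0, 14.8, 3.98, 28.8 and 39.0 in WT and 13.4, 14.5, 6.98, 0 and 5.77 in KO embryos. WT 3 was among the *SOX2* KO embryos. As *ZNF484* was a member only through its WT mean, the rule favored its fall. *ZNF462* ran from 3.82 to 33.4 in WT, against 2.46 to 29.1 in KO embryos, so its groups covered the same range.

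Other zinc finger families had medians of -0.09 among expressed genes (33 ZBTB genes), -0.31 (9 ZSCAN genes), -0.17 (4 ZKSCAN genes) and -0.14 (15 ZFP genes). Of the 70 ZNF genes with a mean under 10, 69 were tested, with a median of 0.52, beside 0.93 for all tested genes under 10. Of these, 5 were called higher (7.25%, background 14.1%: *ZNF316*, *ZNF41*, *ZNF469*, *ZNF648* and *ZNF831*) and 1 lower (1.45%, background 0.195%: *ZNF428*). The WT embryos together held 1 to 7 reads of each of the 5, so no fold is given. The positive median of this low group, as that of all low genes, stood against the negative median of the members.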

How the data were processed

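Single bovine early blastocysts (5 WT, 5 *SOX2* KO) were profiled by Smart-seq2. Per the labels, the authors used Trimmomatic, HISAT2, featureCounts and DESeq2 on ARS-UCD1.2. The deposited table holds a normalized signal, read counts divided by the DESeq2 size factor of each embryo. The annotation release, strand setting and treatment of multi-mapped reads are not given in the sources used here. All 201120 values were whole multiples (within 0.001) of 1 step per embryo, from which reads were recovered. Reads carry no molecular identifiers, so depth covers counting error only. The KO columns are numbered differently from the labels of these embryos, and were therefore assigned to the group but to no labelled replicate.

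limma (3.58.1, lmFit, eBayes with trend) was fitted on log2(normalized read count + 1) over 20056 genes with a mean of at least 1, without covariates, in R 4.3.3. Fold changes on this scale understate changes of low genes. DESeq2 (1.42.0) and edgeR (4.0.16) on recovered reads, pseudocounts of 0.1 and 5, other scalings and filters, the *RN18S1* share as covariate and leaving out embryos were alternatives. Other neighbour distances and leaving out KO 1 and KO 4 together were added after seeing the data. The fits were tested on simulated counts. The members and gene lists were chosen with earlier results of these data known. Named genes were the called members, the 5 with the highest mean, role list and corepressor genes, those at the limit of 10 and those with the most or least spread. Members named for adjusted p alone, for their run or for groups apart were chosen after their values were seen. RefSeq's ARS-UCD2.0 gene table was used only for gene order. Protein classes (KRAB, SCAN, number of fingers), promoters and coordinates are not analysed here.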

Additional observations from a re-analysis of the deposited data

Results flagged for a closer look

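In 129 named genes, the 5 embryos of each group were searched for 1 embryo far from the other 4 (Dixon's test, gap over range above 0.71). This was found in 15 of 258 groups, where chance alone gives about 12.9. KO 4 was the far embryo in 6 of them. It was high in *ZNF614* (205, the others 99.0 to 109), *ZNF706* (508, the others 231 to 294), *ZNF76* (112, the others 70.3 to 80.6), *CBX3* (381, the others 205 to 230) and *PPHLN1* (163, the others 76.1 to 86.8), and low in *ZNF10* (0.821, which is 1 read, the others 8.07 to 10.5). KO 1 was low in *ZNF502* (23.4, the others 27.7 to 28.8).

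Among WT embryos, WT 5 was high in *ZNF711* (51.9, the others 6.99 to 13.9) and *ZNF793* (50.8, the others 28.8 to 34.1). WT 3 was high in *ZNF212* (40.8, the others 10.4 to 14.5) and *TRIM24* (314, the others 221 to 241). WT 4 was high in *ZNF527* (24.1, the others 11.8 to 13.9) and low in *ZNF451* (86.3, the others 123 to 135). WT 1 was high in *ZNF502* (39.7, the others 23.6 to 28.0), and WT 2 was low in *ZNF280D* (17.8, the others 28.8 to 32.8). All values are normalized read counts.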

How the results depend on the processing

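No called value changed sign in any alternative, while 2 medians near 0 did, those of the RNA and ribosome members (-0.14 to 0.09) and of the run from *ZNF283* to *ZNF180* (-0.23 to 0.05). Of 2560 gene values over the alternatives, 2370 kept direction and side of the threshold, 158 no longer passed, 32 newly passed, and 168 values changed sign, all of genes that did not pass. The count of members called, 5, was 2 with pseudocount 5, 3 with scaling by the median log ratio (2 lower, 1 higher), DESeq2, edgeR or only genes with a mean of at least 10 tested, 0 with the *RN18S1* share as covariate (20 at an unadjusted p under 0.05), and 15 with no threshold on the fold change. Leaving out 1 embryo gave 1 to 6, with 1 without WT 1, WT 2 or KO 5, 2 without KO 2 or KO 3, and 3 without WT 5 or KO 1. *ZNF382* was called in all these settings except the *RN18S1* covariate, which also cut the calls among all expressed genes from 778 to 203. Corepressors called, 1, were 0 with pseudocount 5 or the *RN18S1* covariate, 5 with no threshold on the fold change, 2 without KO 1 and KO 4, and 0 to 2 without 1 embryo (0 without WT 2 or KO 1, 2 without WT 1, WT 3 or KO 4). With equal totals or edgeR the 1 call was a lower gene and not *CHD3*. Role list members called, 0, were 1 with quantile normalization or without KO 1 and KO 4, and 5 with no threshold on the fold change. The median of the members, -0.14, was -0.26 with equal totals, -0.0399 with the median log ratio, -0.27 with quantile normalization and -0.22 with edgeR. Equal totals moved the median of all genes by -0.11 and quantile normalization by -0.27. Relative to genes with a mean of at least 10, the members were at -0.10, and at -0.21 with quantile normalization and -0.18 without WT 4, with -0.18 to -0.087 over the fits without 1 embryo. With neighbours at most 1 place apart, the *ZNF146* run split into 7 members (-0.70) and 5 (-0.66), and the *ZNF398* run had the median 0.37 at 1 and at 6 places. No paired analysis was possible because the KO columns run from 1 to 5 while the labels number these embryos 1, 2, 3, 5 and 6, so that no column could be matched to a labelled replicate. The sources used here also do not state that any WT embryo was paired with a *SOX2* KO embryo. Equal replicate numbers in the labels do not by themselves show such pairs. The cause of the shifts between settings was not tested.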
